A study of Mus musculus with 8 samples.

Results

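S100 proteins are small calcium-binding proteins of vertebrates, and their transcripts are described here in mouse leukemic cells with and without Ikzf2. The 8 genes are those named for the comparison, S100a1, S100a4, S100a6, S100a8, S100a9, S100a10, S100a11 and S100a13, out of 24421 gene symbols in each file. All 8 were in the files and all 8 passed the filter on low counts. The cells were C57BL/6 bone marrow leukemia cells transformed with MLL-AF9, a fusion oncogene of acute leukemia, sorted for high levels of the receptor c-KIT after thawing. The WT libraries came from Ikzf2f/f mice, which carry the floxed gene intact, and the KO libraries from Ikzf2Δ/Δ mice, in which it is deleted. Both groups share the fusion oncogene, the strain and the sort. There were 2 RNA-seq libraries per group, and ages, the Cre driver and the number of mice were not named by the labels. A p-value here thus reflects the spread of 4 libraries, and whether the WT libraries came from separate mice is not given. The WT libraries differed beyond counting noise (reduced chi-square 84.3). The KO libraries differed in sex-linked genes, as given below. The 4 ATAC-seq samples were not analysed here.

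Most S100 proteins bind calcium through a pair of EF-hands, the loop motif that they share with calmodulin. They then expose a surface that binds target proteins. Most of the family also work as dimers. S100A8 and S100A9 form the heterodimer calprotectin, one of the most abundant cytosolic proteins of neutrophils, which binds zinc and manganese and is released in inflammation. Their genes are switched on as granulocyte precursors mature. S100A10 forms a complex with annexin A2, S100A11 binds annexin A1, and S100A6 binds annexin A11 and the calcyclin-binding protein. S100A4 binds non-muscle myosin IIA and is linked to cell migration. S100A1 is known best from muscle, where it acts on ryanodine receptors, and S100A13 takes part in the release of proteins that lack a signal peptide.

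In these libraries S100a8 and S100a9 were higher in KO, with no overlap between the groups, by 8.98- and 6.46-fold in the fit. S100a1 and S100a11 were also higher in both KO libraries, by smaller amounts. S100a4, S100a6 and S100a10 gave overlapping groups, with WT replicate 2 highest. For S100a4 and S100a6 WT replicate 1 was lowest, and for S100a10 it lay between the KO libraries. S100a13 stayed within a narrow range in all 4 libraries. None of the 8 genes passed edgeR's quasi-likelihood test over all genes, which at a threshold of 0.05 called 0 of 12623 genes (0%), with 968 (7.67%) under an unadjusted p of 0.05. voom in limma also called 0. DESeq2 called S100a8 and S100a9 as higher in KO. Over all 13422 genes with an adjusted p it called 352 (2.62%), of which 209 (1.56%) were higher.

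Gene counts per library ran from 16006081 to 19286090, and 69.3% to 72.4% of all deposited counts fell in rows that name no gene. Ikzf2, which encodes the Ikaros-family zinc finger protein Helios, stood at 283 and 271 CPM (a gene's counts scaled to the TMM-adjusted library size) in WT and at 10.9 and 26.5 CPM in KO. Kit, the sorted receptor, ranged from 216 to 376 CPM. The Y-linked gene Ddx3y stood at 109.5 and 102.4 CPM in WT and at 0.0619 and 70.1 CPM in KO. The KO libraries thus differed in sex, and the part of this in the S100 values was not tested. KO replicate 1 stood apart in its sex-linked genes, with Xist at 833 CPM against at most 0.600 CPM in the other libraries. It was also highest in the MHC class II antigen presentation genes Cd74, H2-Aa, H2-Ab1 and H2-Eb1, at 821, 397, 268 and 282 CPM, which gave most of the 1856 CPM that 10 listed dendritic cell genes summed to there, against 189 to 408 CPM elsewhere. The other dendritic markers of that list were mixed. Flt3 was lowest there, at 69.1 CPM against 153 to 286 CPM, and Itgax stood at 10.5 CPM against 37.1 CPM in WT replicate 1, while Siglech, Zbtb46 and Cd209a, too low to be tested, were highest there, at 0.742, 1.73 and 6.12 CPM. Of the 6 that were tested 4 were above 0, and DESeq2 called Cd74, H2-Aa and H2-Eb1 as higher. With a library left out it lost Cd74 without WT replicate 1 (adjusted p = 0.294) and H2-Eb1 without either WT library (0.429 and 0.139), and it kept H2-Aa only when KO replicate 2 was the one left out (0.611, 0.0941 and 0.150 otherwise).

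The bases before the start sites of 4 of these genes are shown because S100a8 and S100a9 moved together, while S100a4 and S100a6 shared a wide gap between the WT libraries. RefSeq promoter windows of GRCm38.p6, the assembly that mm10 names, matched 7 of the 8 genes, all but S100a10. Each line gives the 250 bases before the start site, 5′ to 3′ on the strand of the gene. Capitals mark matches, on either strand, to the letters TTNNGNAA (C/EBP factors), GAGGAAG (PU.1), TGGGAA (the Ikaros family, to which Helios belongs), TGANTCA (AP-1) and TATAAA (the TATA box).
S100a8, plus strand, chr3:90668821-90669070: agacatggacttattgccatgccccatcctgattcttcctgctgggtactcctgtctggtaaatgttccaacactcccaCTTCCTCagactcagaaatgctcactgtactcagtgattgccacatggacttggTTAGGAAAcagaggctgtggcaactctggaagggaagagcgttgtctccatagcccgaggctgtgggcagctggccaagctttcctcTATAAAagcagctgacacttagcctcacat
S100a9, minus strand, chr3:90695722-90695971: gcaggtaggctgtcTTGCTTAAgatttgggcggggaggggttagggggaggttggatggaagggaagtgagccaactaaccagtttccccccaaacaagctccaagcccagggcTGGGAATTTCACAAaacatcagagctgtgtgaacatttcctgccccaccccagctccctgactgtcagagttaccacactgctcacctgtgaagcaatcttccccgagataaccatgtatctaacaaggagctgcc
S100a4, plus strand, chr3:90603520-90603769: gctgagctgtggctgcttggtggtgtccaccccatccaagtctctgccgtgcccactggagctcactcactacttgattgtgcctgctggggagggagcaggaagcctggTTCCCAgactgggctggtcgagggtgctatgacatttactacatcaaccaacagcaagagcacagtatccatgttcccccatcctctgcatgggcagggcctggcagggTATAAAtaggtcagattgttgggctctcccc
S100a6, plus strand, chr3:90612644-90612893: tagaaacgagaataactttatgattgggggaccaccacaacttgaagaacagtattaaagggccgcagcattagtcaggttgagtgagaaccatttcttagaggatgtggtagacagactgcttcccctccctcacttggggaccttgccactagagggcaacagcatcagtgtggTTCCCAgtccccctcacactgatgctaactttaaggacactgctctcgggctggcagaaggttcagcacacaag
S100a8 held a TATA box that began 30 bases before its start, 1 PU.1 match at 171 bases and 1 C/EBP match at 117 bases. S100a9 held 2 C/EBP matches, at 236 and 130 bases, and 1 Ikaros-family match at 136 bases, directly beside the nearer C/EBP match. S100a4 and S100a6 each held 1 Ikaros-family match, at 140 and 74 bases, and S100a4 a TATA box at 31 bases. Of the others, S100a11 held 2 AP-1 matches, at 136 and 38 bases, and S100a1 and S100a13 held 0 matches to any of the 5 motifs. The S100a13 window ends at 90514434, inside the gene as placed here, so it precedes an inner start site and not the left end of the gene. Among 32851 windows of this length in the table, 36.8% held the C/EBP letters, 10.6% those of PU.1, 21.6% those of the Ikaros family, 6.75% those of AP-1 and 12.4% the TATA letters. These matches describe letters only, and no binding data were analysed here.

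S100a8 (chromosome 3, 90669071 to 90670034) encodes the smaller chain of calprotectin. Its level was 78.2 CPM in WT replicate 1, 389 CPM in WT replicate 2, 1680 CPM in KO replicate 1 and 2520 CPM in KO replicate 2, from 1564, 7340, 27159 and 42928 counts. Both KO libraries lay above both WT libraries, and the lower KO library was still above the higher WT library by several fold. The means were 234 ± 220 CPM in WT and 2100 ± 594 CPM in KO (SD, n = 2 per group). The fitted log2 fold change was 3.17 (SE 0.82), with an adjusted p of 0.456 by edgeR and of 3.17e-04 by DESeq2. S100a9 (chromosome 3, 90692630 to 90695721), the partner chain, stood at 110 and 720 CPM in WT and at 2057 and 3301 CPM in KO. The groups again did not overlap, with WT replicate 1 lowest and KO replicate 2 highest, as for S100a8. Its log2 fold change was 2.69 (SE 0.92), with an adjusted p of 0.594 by edgeR and of 0.0136 by DESeq2.

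The size of both differences depended on which WT library was used. WT replicate 2 was above WT replicate 1 by 4.98-fold for S100a8 and 6.57-fold for S100a9, while KO replicate 2 was above KO replicate 1 by 1.50- and 1.61-fold. Without WT replicate 2 the log2 fold changes were 4.76 and 4.62, and edgeR called both genes (adjusted p = 8.38e-04 and 0.00125), with the lone WT library assumed to vary like the KO libraries. Without WT replicate 1 the log2 fold changes were 2.43 and 1.90 (edgeR adjusted p = 0.0733 and 0.241). DESeq2 lost S100a8 without KO replicate 1 or 2 (adjusted p = 0.591 and 0.564) and S100a9 likewise (0.932 and 0.781).

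The 2 chains kept a similar ratio while their levels moved. S100a8 counts were 0.713 and 0.541 of S100a9 counts in WT and 0.817 and 0.763 in KO. Both KO ratios were above both WT ratios, by 0.35 on the log2 scale, and an exact two-sided permutation test gave p = 0.333, the smallest value that 2 against 2 libraries allow. Of all pairs among the 8 genes, these 2 had the most similar profiles over the 4 libraries, with a root mean square difference of 0.23 in centred log2 CPM. The next pair, S100a1 and S100a11, differed by 0.26, and S100a4 and S100a11 differed most, by 2.48.

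**Figure D1:**
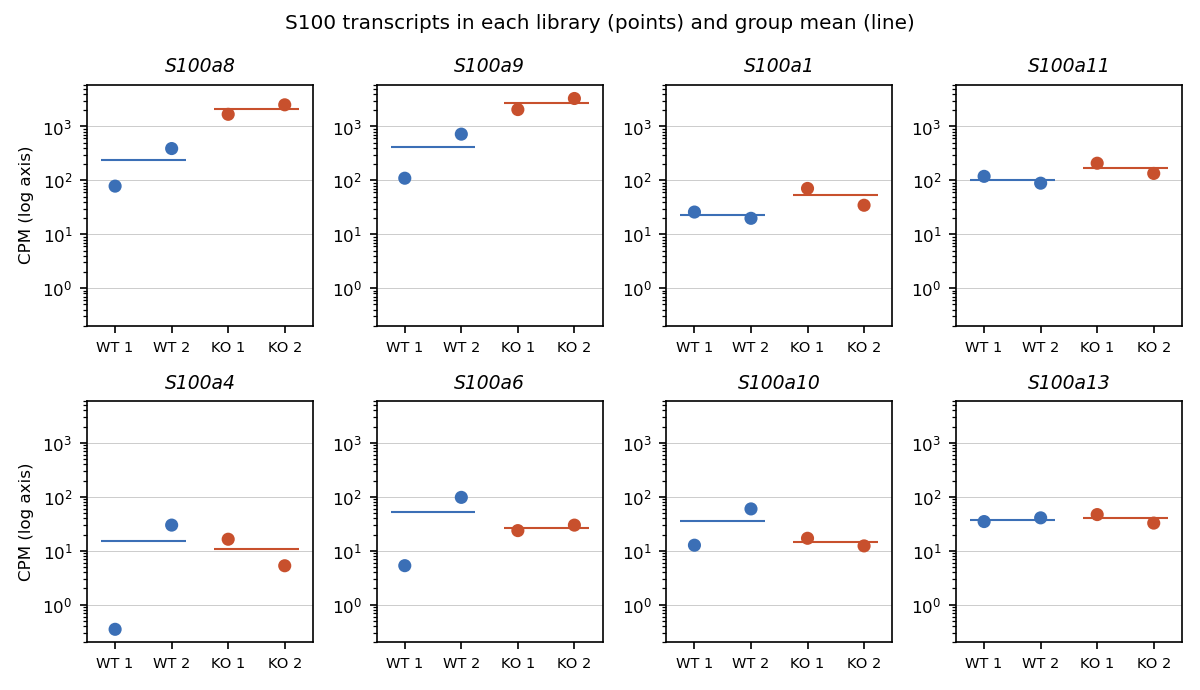
CPM of each S100 gene (log axis) in WT replicates 1 and 2 (blue) and KO replicates 1 and 2 (orange), with a line at each group's mean. S100a8 and S100a9 are highest in both KO libraries, and S100a4, S100a6 and S100a10 are highest in WT replicate 2, at 30.0, 97.9 and 59.8 CPM.

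Among 4993 other genes with a mean of at least 50 CPM, 3 had the profile nearest to that of S100a8. They were Chil3, a chitinase-like protein of granulocytes and macrophages (0.12), S100a9 (0.23) and Ltf, the lactoferrin of secondary granules (0.41). Chil3 stood at 322 and 1766 CPM in WT and at 8449 and 10380 CPM in KO. Ltf stood at 7.55 and 56.2 CPM in WT and at 131 and 391 CPM in KO. The genes of that pattern were thus lowest in WT replicate 1 and highest in KO replicate 2.

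Most listed genes of secondary and tertiary granules and of mature neutrophils were higher in KO, as S100a8 and S100a9 were. Of 20 such genes other than S100 genes, 19 had a log2 fold change above 0, with a median of 2.32, against 49.4% above 0 and a median of -0.004 over all tested genes. Both KO libraries were higher in 15 of the 20, against 18.1% of all tested genes. The groups overlapped for Mmp8, Mmp9, Retnlg, Stfa2 and Padi4, with log2 fold changes of 0.98, 0.12, 0.27, 1.15 and -0.16. DESeq2 called 8, all higher, and edgeR 0. Wfdc21, of the whey acidic protein domain family, stood at 1.30 and 1.01 CPM in WT and at 43.1 and 63.6 CPM in KO (5.52 on the log2 scale, SE 0.38, DESeq2 adjusted p = 1.10e-31). Trem1, an activating receptor of neutrophils and monocytes, had 2.27 (SE 0.25). Mcemp1, a membrane protein of mast cells and myeloid cells, had 1.55 (SE 0.22), and both passed DESeq2. In WT, Trem1 stood at 24.1 and 27.0 CPM and Mcemp1 at 53.3 and 52.4 CPM. Neither these genes nor Wfdc21 had the wide WT gap of S100a8 and S100a9. With 1 library left out DESeq2 called 4 to 14 of the 20, fewest without KO replicate 2 and most without WT replicate 2, and it lost Mcemp1 without WT replicate 1 (adjusted p = 0.0720). The list's median log2 fold change ran from 1.60, with KO replicate 2 left out, to 3.52, with WT replicate 2 left out. The summed level of the list was 1656 and 5561 CPM for WT, against 18980 and 25620 CPM for KO, and all 20 genes had a count in each library. Within WT, 18 of the 20 were higher in replicate 2 (median 2.30 on the log2 scale), and within KO 16 of the 20 (median 0.87). The part of this shared movement in the S100 result was not tested. In bulk RNA a larger number of cells of a type and more RNA per cell cannot be told apart.

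Primary granule genes, which mark an earlier granulocyte stage, had sums in a different order between the libraries. Their summed level was 5681 and 4106 CPM for WT, against 25100 and 14770 CPM for KO, highest in replicate 1 of each group, where S100a8 and S100a9 were lowest. Single genes were mixed. Elane, Prtn3 and Lyz2 followed the order of the sums, and Mpo and Cst7 did so in KO only. Ctsg did so within each group but overlapped between groups, at 2122 and 894 CPM in WT and at 1795 and 1216 CPM in KO. Ms4a3 and Serpinb1a were higher in replicate 2 of each group, as S100a8 and S100a9 were. Of 8 such genes 7 were above 0 (median 1.64), and both KO libraries were higher in 7, against 18.1% of all tested genes. DESeq2 called 5 as higher, led by Mpo, Elane and Lyz2. Mpo, the myeloperoxidase gene, stood at 286 and 343 CPM in WT and at 7073 and 4311 CPM in KO. Monocyte and macrophage genes were above 0 in 8 of 12 (median 1.15), and their sums overlapped, at 2453 and 1577 CPM in WT and at 2425 and 2148 CPM in KO. DESeq2 called 3 as higher, F13a1, Mpeg1 and Csf1r. Without WT replicate 1 or KO replicate 1 it called 1 of the 12, and lost Mpeg1 (adjusted p = 0.443 and 0.189) and Csf1r (0.565 and 0.366).

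Of 13 transcription factors of myeloid cells, which include the C/EBP factors and PU.1, 11 were above 0, with a median of 0.27. Both KO libraries were higher in 6 of the 13. Over all tested genes 49.4% were above 0, and both KO libraries were higher in 18.1%. DESeq2 called 1, Cebpd, at 48.8 and 53.3 CPM in WT and at 97.5 and 91.8 CPM in KO (0.89 on the log2 scale, SE 0.19, adjusted p = 0.0273), and edgeR called 0. With any library left out DESeq2 did not call Cebpd (adjusted p from 0.149 to 0.9998).

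S100a8 and S100a9 together summed to 188 and 1110 CPM in WT and to 3737 and 5821 CPM in KO. The other 6 genes summed to 198 and 337 CPM in WT and to 383 and 249 CPM in KO, so that their groups overlapped. The ratio of the first sum to the second was 0.950 and 3.29 in WT and 9.76 and 23.4 in KO, a difference of 3.09 between the group means on the log2 scale (SD 1.27 in WT and 0.89 in KO, n = 2 each). No p is given for this ratio, since its genes were chosen. As a share of the counts of all 8 genes, S100a8 and S100a9 made up 48.7% and 76.7% in WT and 90.7% and 95.9% in KO. The 8 genes made up 0.0400% and 0.146% of all gene counts in WT and 0.416% and 0.574% in KO. Counts are not scaled by transcript length here, so the shares are compared between libraries and not between genes.

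**Figure D2:**
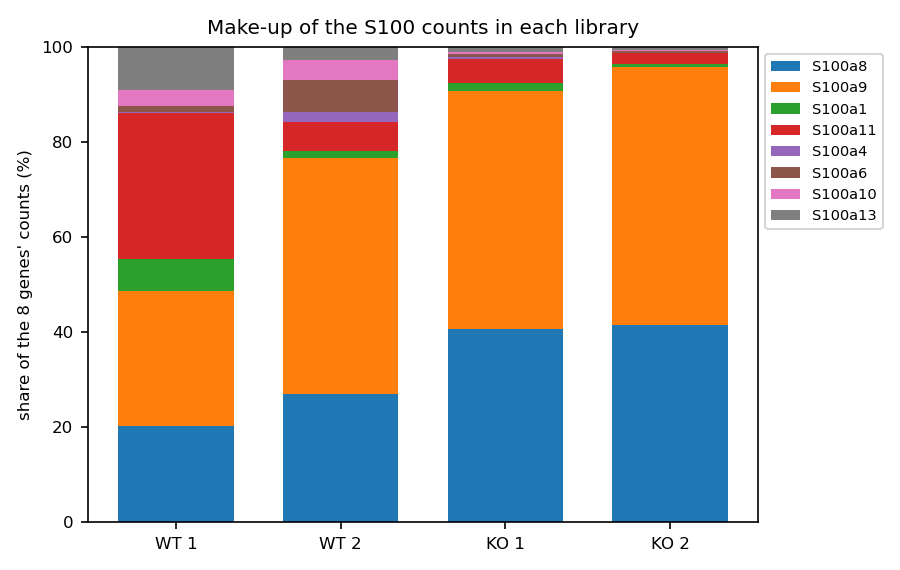
Share of the summed counts of the 8 S100 genes taken by each gene (percent, stacked to 100) in the 4 libraries. S100a8 takes 20.3% in WT replicate 1 and 41.5% in KO replicate 2, where S100a11 takes 30.8% and 2.22%.

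S100a11 and S100a1 were higher in both KO libraries, by less than S100a8 and S100a9. S100a11 (chromosome 3, 93520496 to 93526288), the annexin A1 partner, stood at 119 and 88.7 CPM in WT and at 208 and 135 CPM in KO. The groups did not overlap, and replicate 1 was the higher library in each. Its log2 fold change was 0.72 (SE 0.30), with an adjusted p of 0.664 by edgeR and an unadjusted p of 0.0558. S100a1 (chromosome 3, 90511034 to 90514330) stood at 25.9 and 19.8 CPM in WT and at 70.9 and 34.6 CPM in KO, with KO replicate 1 2.05-fold above KO replicate 2. Its log2 fold change was 1.21 (SE 0.40), with an adjusted p of 0.570 by edgeR and 0.169 by DESeq2. Without KO replicate 1, the library highest in MHC class II genes, the log2 fold change was 0.60 for S100a1 and 0.38 for S100a11, and without KO replicate 2 DESeq2 called S100a1 (log2 fold change 1.64, adjusted p = 0.0106). The part of the MHC class II genes was not tested. With these 2 genes, 4 of the 8 S100 genes were higher in both KO libraries and 0 lower, where 18.1% of all tested genes were higher and 37.2% did not overlap in either direction.

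S100a13 (chromosome 3, 90514233 to 90524581), beside S100a1, stood at 34.9 and 40.9 CPM in WT and at 47.0 and 32.6 CPM in KO. The groups overlapped, and the log2 fold change was 0.07 (SE 0.27; edgeR adjusted p = 0.987). S100a1 and S100a13 lie on opposite strands and overlap by 98 bases at their 5′ ends. Since no source used here states the strand setting of the counting, reads from the overlap cannot be told apart. S100a1 counts were 0.742 and 0.484 of S100a13 counts in WT and 1.51 and 1.06 in KO, a ratio examined after the values of both genes were seen.

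S100a4 (chromosome 3, 90603770 to 90606045) had the widest spread of the 8 genes. It stood at 0.350 and 30.0 CPM in WT and at 16.4 and 5.28 CPM in KO, from 7, 565, 265 and 90 counts. The KO libraries lay between the WT libraries, which differed by 85.6-fold. The 95% exact Poisson interval of the lowest value ran from 0.141 to 0.721 CPM and that of WT replicate 2 from 27.6 to 32.5 CPM, intervals that cover counting error only. The gap within WT was at least as wide as in 99.87% of the 12623 tested genes, and the gap within KO, 3.10-fold in the other direction, as in 93.4%. The log2 fold change of -0.48 (SE 1.65; edgeR adjusted p = 0.984) was smaller than its error. It was 4.94 without WT replicate 2 and 1.52 by voom, which averages on the log scale.

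S100a6 (chromosome 3, 90612894 to 90614414), which encodes calcyclin, shared the low value in WT replicate 1 and the high value in WT replicate 2. It stood at 5.30 and 97.9 CPM in WT and at 23.7 and 29.9 CPM in KO. The WT libraries differed by 18.5-fold, while the KO libraries lay between them and differed by 1.26-fold. The log2 fold change was -0.94 (SE 1.20; edgeR adjusted p = 0.936). Its sign followed the WT library kept: it was -1.87 without WT replicate 1 (adjusted p = 0.0469 by edgeR and 0.0252 by DESeq2) and 2.35 without WT replicate 2 (0.0937 by edgeR and 0.00478 by DESeq2), so that DESeq2 called it in opposite directions.

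S100a10 (chromosome 3, 93555117 to 93564645), also known as p11, stood at 12.7 and 59.8 CPM in WT and at 17.1 and 12.3 CPM in KO. WT replicate 2 stood alone, 4.71-fold above WT replicate 1, and the other 3 libraries lay close together. The log2 fold change was -1.30 (SE 0.74; edgeR adjusted p = 0.793), and it was 0.22 without WT replicate 2. The genes nearest to its profile, with a mean of at least 50 CPM, were Glipr1 (0.32), Hmces (0.33) and Tpm4, a tropomyosin of the actin cytoskeleton (0.34). Glipr1 stood at 276 and 848 CPM in WT and at 428 and 282 CPM in KO, again with WT replicate 2 highest.

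**Figure D3:**
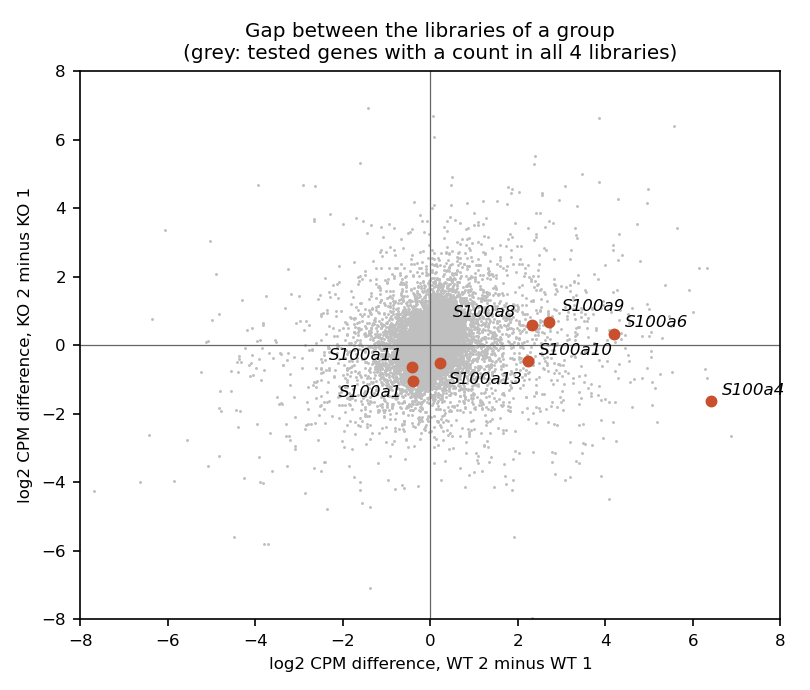
Difference in log2 CPM between the libraries of a group, WT replicate 2 minus 1 (horizontal) against KO replicate 2 minus 1 (vertical), for tested genes with a count in each library (grey) and the 8 S100 genes (orange). S100a4 and S100a6 lie far to the right, at 6.42 and 4.21, while S100a1, S100a11 and S100a13 differ by at most 2.05-fold within either group.

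Of the 8 genes, 5 thus had a WT gap of over 4-fold, S100a4, S100a6, S100a8, S100a9 and S100a10, with WT replicate 2 higher in each. Over all tested genes the median gap was 0.27 within WT and 0.42 within KO on the log2 scale. Within WT 13.1% of genes differed by more than 2-fold, a lower threshold than the 4-fold above. The S100a10 gap, the smallest of the 5, was at least as wide as in 96.0% of tested genes. Among marker lists, the sums of stem and progenitor genes and of stromal and endothelial genes, given below, were highest in WT replicate 2. So were those of 2 further lists, largely through Prg2 and Itga2b. Mast cell, basophil and eosinophil genes summed to 61.9 and 188 CPM in WT and to 106 and 63.8 CPM in KO, of which Prg2, a granule protein of eosinophils, gave 5.45 and 151 CPM and 4.70 and 25.9 CPM. Mcpt8, a basophil protease, went the other way within WT, at 48.5 and 22.9 CPM, as did Fcer1a and Prss34 at low levels. Of the 8 genes of that list 6 were tested, and Mcpt4 had 0 counts in all libraries. Megakaryocyte and platelet genes summed to 31.4 and 130 CPM in WT and to 24.1 and 51.0 CPM in KO. Itga2b, an integrin chain of platelets, gave 28.6 and 112 CPM of this in WT and 2.85 and 21.3 CPM in KO, lower in both KO libraries, while Vwf, Gp1bb and Gp9 were higher in both. Ppbp had 0 counts and 4 of the 7 were tested. Their part in the S100 values was not tested.

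Genes of S100 partner proteins gave mixed directions. Of 13 annexin and Ahnak genes 10 were tested, 6 above 0 and 4 below, with a median of 0.27. DESeq2 called Anxa3, an annexin of granulocytes, as higher (log2 fold change 1.05, SE 0.24, adjusted p = 0.00908) and Anxa9 as lower (-1.25, SE 0.28, adjusted p = 0.0261), and edgeR called 0. DESeq2 kept both when KO replicate 2 was left out and lost both when any other library was (adjusted p from 0.165 to 0.775). Anxa2, the partner of S100A10, stood at 326 and 282 CPM in WT and at 314 and 444 CPM in KO, without the high value that S100a10 had in WT replicate 2. S100a10 counts were 0.0390 and 0.212 of Anxa2 counts in WT and 0.0543 and 0.0277 in KO (exact two-sided permutation p = 0.667). Anxa1, the partner of S100A11, stood at 61.5 and 314 CPM in WT and at 163 and 400 CPM in KO, higher in replicate 2 of each group, where S100a11 was lower. The log2 fold change was 0.46 (SE 0.53) for Anxa11 and -0.41 (SE 0.23) for Cacybp, the calcyclin-binding protein gene.

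Receptors that bind S100A8, S100A9 or other S100 proteins outside the cell were measured as well. Of 8 such genes 6 were tested, 4 above 0 and 2 below, with a median of 0.20. Tlr4, the lipopolysaccharide receptor that also responds to calprotectin, was the only one that DESeq2 called, at 9.10 and 8.97 CPM in WT and at 48.3 and 33.0 CPM in KO (2.17 on the log2 scale, SE 0.31, adjusted p = 1.75e-06). DESeq2 called it with each library left out (adjusted p up to 0.0251), and edgeR called 0 of the receptors (Tlr4 adjusted p = 0.387). Ager, the receptor for advanced glycation end products, had 0.40 (SE 0.45). Of 15 intracellular partners 13 were tested, 7 above 0 and 6 below (median 0.06), and neither tool called any. Of the partners of highest mean CPM, Rac2, a subunit of the phagocyte oxidase complex, had 0.55 (SE 0.24), and Myh9, the non-muscle myosin that S100A4 binds, -0.08 (SE 0.43). Of 17 other EF-hand genes, taken as a comparison, 12 were above 0 (median 0.11) and neither tool called any. Lcp1, which encodes L-plastin, had 0.09 (SE 0.29), and Capns1, the small calpain subunit, 0.14 (SE 0.21).

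**Figure D4:**
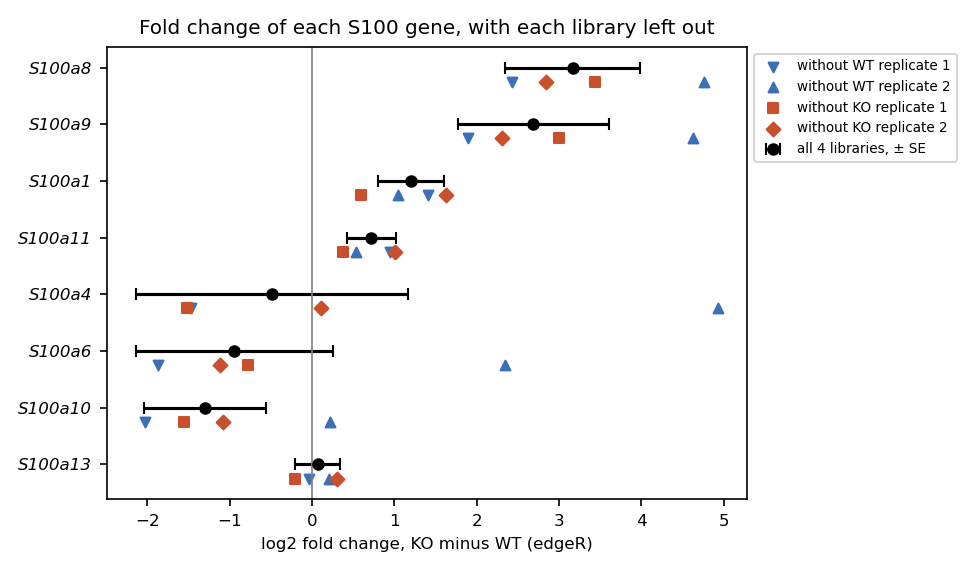
Log2 fold change of each S100 gene, KO minus WT, by edgeR over all 4 libraries (black, ± SE) and with 1 library left out (blue, a WT library; orange, a KO library). S100a8 and S100a9 stay above 1 in every case, whereas S100a4 runs from -1.52 to 4.94 and S100a6 from -1.87 to 2.35.

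The 8 genes lie in 2 groups on chromosome 3. S100a9 starts 26.6 kb from S100a8, on the opposite strand. S100a4 and S100a6 start 65.3 and 56.2 kb from S100a8 on the other side, and S100a11 starts 2851.4 kb away, close to S100a10. Within 200000 bases of an S100 start lay 18 further protein-coding genes, of which 6 were S100 genes. Of these 18, 6 were tested, none an S100 gene, with a median log2 fold change of 0.07, and neither tool called any. Chtop, a chromatin-associated protein gene and the one of smallest p, had 0.23 (SE 0.20). The 9 other S100 symbols in the files held at most 5 counts in any library. S100a16, S100a7a, S100b, S100g and S100z had 0 counts in all 4, which allows at most 0.150 to 0.186 CPM per library for 3 counts.

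**Figure D5:**
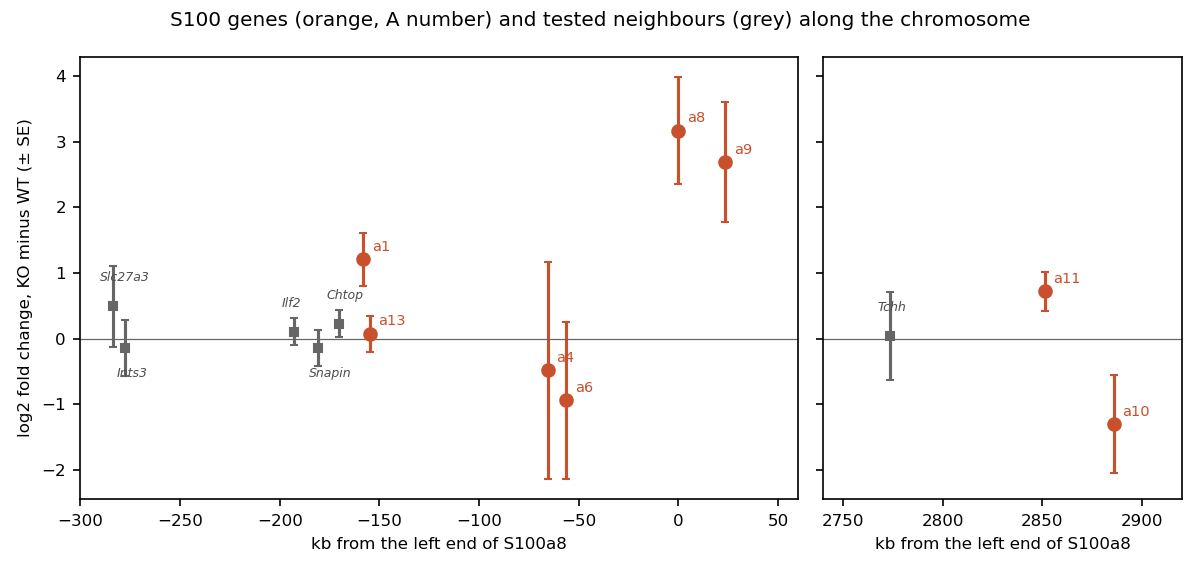
Log2 fold change (KO minus WT, ± SE) of the S100 genes (orange) and of tested neighbouring genes (grey squares) against distance in kb from the left end of S100a8, in 2 panels of the same chromosome. S100a8 and S100a9 stand at 3.17 and 2.69, and the grey genes lie between -0.14 and 0.49.

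Some markers of other lineages were at 0 in the sorted cells, while others of the same lists were not. Erythroid genes Hba-a1, Hba-a2, Hbb-bs and Hbb-bt had 0 counts in all libraries, as had Cd8a and Ncr1 of T and NK cells, and Col3a1 and Dcn of stroma. A count was present for 4 of 9 erythroid genes in each library. It was present for 4 to 7 of 9 T and NK cell genes and 3 to 6 of 9 stromal and endothelial genes. Since the handling of reads that match several genes is not given, 0 counts need not mean absence. B cell genes summed to 18.0 to 24.5 CPM in WT and 25.7 to 36.2 CPM in KO, most of it from Cd79b. T and NK cell genes summed to 69.7 to 104 CPM in WT and 95.9 to 136 CPM in KO, most of it from Nkg7. Stromal and endothelial genes summed to 237 and 258 CPM in WT and to 72.1 and 154 CPM in KO, almost wholly from Pecam1, which leukocytes also express. Erythroid genes summed to 137 to 205 CPM in WT and to 186 to 261 CPM in KO, almost wholly from Tfrc, the transferrin receptor of dividing cells. With all libraries, DESeq2 and edgeR called 0 genes of these 4 lists, of which few genes passed the filter on low counts. Those that edgeR tested were 2 of 8 B cell, 3 of 9 T and NK cell, 1 of 9 stromal and endothelial and 3 of 9 erythroid genes. Stem and progenitor genes were below 0 in 9 of 11 (median -0.23), with sums of 1838 and 2419 CPM for WT and of 1648 and 2010 CPM for KO. DESeq2 called Gata2 as lower and Prdm16 as higher among them. It lost Gata2 without WT replicate 2 or KO replicate 1 (adjusted p = 0.787 and 0.375) and did not call Prdm16 with any library left out (0.186 and 0.285 without WT replicates 1 and 2).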

How the data were processed

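RNA-seq counts were analysed for 2 Ikzf2 WT and 2 Ikzf2 KO libraries, grouped by sample title. The deposited values are raw counts per gene symbol. STAR 2.3.0, HTSeq and build mm10 are named in the submitters' processing notes, without their roles. Annotation, filters and strand setting: not given in the sources used here. The last 5 rows, which name no gene and held 69.3% to 72.4% of all counts, were dropped.

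Genes were filtered with filterByExpr (12623 kept), scaled with TMM and tested KO against WT with edgeR 4.0.16 (quasi-likelihood F-test, robust, no covariate, Benjamini-Hochberg over all genes, threshold 0.05) in R 4.3.3. Each SE was taken from the fold change and its F value. DESeq2 1.42.0, voom in limma 3.58.1, other scalings and filters, a replicate term and leaving out each library were alternatives. The fits were tested on simulated data in which all genes shared the same dispersion, so that test does not cover the spread between these libraries. Libraries of a group differed beyond counting noise (reduced chi-square 84.3 for WT, 114 for KO). Gene places come from RefSeq, GRCm38.p6.

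The S100 genes and the 17 gene lists (187 genes, 185 in the files) were chosen with earlier results of these data known. Named list genes are those DESeq2 called (up to 3 of smallest adjusted p) or, where it called none, the 2 of highest mean CPM. Anxa1, Anxa2, Anxa11, Cacybp, Tlr4 and Ager were always named. H2-Ab1, Flt3, Itgax, Siglech, Zbtb46, Cd209a, Fcer1a, Prss34, Gp1bb and Gp9 were named after their values were seen. So were Prtn3, Ctsg, Cst7, Ms4a3, Serpinb1a, Mmp8, Mmp9, Retnlg, Stfa2 and Padi4. Length-scaled sums were planned, but no transcript lengths were used, so sums are of CPM.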

Additional observations from a re-analysis of the deposited data

How the results depend on the processing

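Of the 8 S100 genes, edgeR called 0 over all libraries, and 0 to 2 with a library left out by edgeR, 0 to 4 by DESeq2, which called 2 with all libraries. Over all genes edgeR called 0, against 4 without a filter on low counts, 11 with the replicate block, 352 by DESeq2, 0 to 156 with a library left out by edgeR and, by DESeq2, 162 and 390 when the first or the second WT library was dropped and 178 and 384 for the KO libraries in the same order (DESeq2 fits with a library left out were chosen after seeing the data). The replicate block called 0 of the 8 genes. Replicate differences in WT and KO correlated at 0.19 over 12623 genes, and the labels do not say that the numbers pair libraries. The most alike libraries were of different groups: WT replicate 2 and KO replicate 2 correlated at 0.95 in log2 CPM. The correlation was 0.939 within WT and 0.94 within KO. The log2 fold changes of S100a1, S100a8, S100a9 and S100a11 kept their sign in 16 of 16 settings each. That of S100a4, -0.48, turned to 1.52 by voom, 1.11 with the replicate block, 4.94 without WT replicate 2 (4.96 by DESeq2, adjusted p = 1.38e-04) and 0.11 without KO replicate 2 (0.11 by DESeq2), and was lowest, -1.52, without KO replicate 1. That of S100a6, -0.94, turned to 0.27 by voom, 0.16 with the replicate block and 2.35 without WT replicate 2 by edgeR and DESeq2 alike, and was -1.87 without WT replicate 1. That of S100a10 turned to 0.22 without WT replicate 2 by both tools, and was -2.02 without WT replicate 1. That of S100a13, 0.07, turned to -0.037 and -0.21 without WT replicate 1 and KO replicate 1 by edgeR (highest 0.31, without KO replicate 2), and to -0.032 and -0.20 by DESeq2. The cause was not tested.

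The ratio of S100a8 and S100a9 to the other 6 genes gave log2 differences of 2.20 to 3.99 with a library left out, and 2.93 as a mean of log2 CPM. The difference in the ratio of S100a8 to S100a9 ran from 0.15 to 0.55, and that of S100a10 to Anxa2 from -2.45 to -0.006, the last without WT replicate 2. Medians of lists were recomputed after seeing the data: that of annexins ran from -0.20 without KO replicate 2 to 0.35 without WT replicate 2 (-0.046 without WT replicate 1), that of receptors from -0.15 without KO replicate 1 to 0.45 without KO replicate 2, and that of intracellular partners turned to -0.034 without WT replicate 1. The granule list ran from 1.60 to 3.52 with a library left out. With 2 libraries per group, precision is limited by the spread between libraries rather than by counts. For S100a4 in WT replicate 1, with 7 counts, the counting interval was wide (0.141 to 0.721 CPM). It was still far narrower than the 85.6-fold gap between the WT libraries.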
